A study of Mus musculus with 12 samples.

Results

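The 10 genes described here, *Pou5f1*, *Sox2*, *Sall4*, *Utf1*, *Zfp281*, *Zscan10*, *Dppa4*, *Lin28a*, *Lin28b* and *Trim71*, are factors shared by naive and formative pluripotent cells together with the LIN28 and TRIM71 axis. They were taken by gene symbol, each symbol matched 1 gene of the deposited transcript table, and they are 10 of 57180 genes. All 10 passed the filter on low values (at least 10 counts over all libraries) that 25446 genes passed. RNA was sequenced from mouse E14 embryonic stem cells (ESCs) of the E14-DOX-CRISPRi line, which expresses a dCas9 repressor upon doxycycline (DOX). The parent line was derived as a clone. Neg cells carried scramble guides and 3×KD cells carried guides against *Pcx*, *Me1* and *Me2*, which encode pyruvate carboxylase and the cytoplasmic and mitochondrial malic enzymes. The paper lists 1 line of each kind, so the guides and other differences between the lines cannot be told apart. Each was grown as naive ESCs in N2B27 with 2iLIF, or as epiblast-like cells (EpiLCs) at day 2 of induction in N2B27 with Activin A, Fgf2 and XAV939 (FAX). According to the methods, DOX or its solvent, antibiotic selection and low oxygen applied to both lines. The paper's legend to its expression heatmap of metabolic genes gives DOX for both lines in both states, while the sample labels do not name DOX. There were 4 groups of 3 libraries, Neg ESCs, 3×KD ESCs, Neg EpiLCs day 2 and 3×KD EpiLCs day 2, and nothing in the labels says whether replicates were separate cultures, so p-values measure the spread between these libraries.

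OCT4 (from *Pou5f1*) and SOX2 bind DNA as partners and hold the pluripotent state with factors such as SALL4, and losing either one makes cells leave that state. LIN28A and LIN28B are RNA-binding proteins that block maturation of the let-7 microRNAs, and let-7 in turn represses the LIN28 genes and *Trim71* through sites in their 3′ UTRs, so that each side holds the other down. LIN28 is low in naive cells and is known to rise as they pass to the formative and primed states.

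All let-7 family members share the seed by which they find targets, and 9 mature sequences (RefSeq, GRCm38.p6 table) carried 1 seed. A pair of them is shown because the sites in the LIN28 axis genes below are defined by that seed, with the seed (bases 2 to 8) in capitals.
mmu-let-7a-5p: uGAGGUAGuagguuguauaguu
mmu-let-7g-5p: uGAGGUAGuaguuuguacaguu

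LIN28 proteins recognize GGAG letters in let-7 precursors, which 9 of 12 hairpins in the table held at least once. The let-7g hairpin is shown with these letters in capitals.
Mirlet7g: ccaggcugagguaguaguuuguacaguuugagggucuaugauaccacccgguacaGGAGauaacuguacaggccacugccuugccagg

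Letters complementary to the seed (CTACCTC, on the transcript strand) stood in the 3′ UTR of 5 of the 10 genes in the annotation (GENCODE vM39, GRCm39). *Lin28b* and *Trim71* each held 4 matches, *Lin28a* held 2, and *Sall4* and *Zfp281* held 1 each, against none for *Pou5f1*, *Sox2*, *Utf1*, *Zscan10* and *Dppa4*. A match was present in 9.906% of 20684 canonical 3′ UTRs of protein-coding genes. Among UTRs of like length (0.8 to 1.2 times), at least as many matches stood in 1.96% for *Lin28a*, 0.19% for *Lin28b* and 0.39% for *Trim71*, and in 11.85% for *Sall4* and 26.83% for *Zfp281*. The *Zfp281* UTR is longer in this annotation than in the transcript the authors counted. The sites followed by an A are shown for the LIN28 axis, with the seed match in capitals and 10 bases on each side.
Lin28a, chr4:133732501-133732507, minus strand: gcctgttgaaCTACCTCatttttgccg
Lin28a, chr4:133731863-133731869, minus strand: cgccacaaacCTACCTCactgtgttga
Lin28b, chr10:45257119-45257125, minus strand: ggcgggaagtCTACCTCatgcaagcac
Trim71, chr9:114341541-114341547, minus strand: tgcctaagtcCTACCTCagcttaaatt
Trim71, chr9:114341445-114341451, minus strand: taatttctatCTACCTCaactctttgc
Trim71, chr9:114338116-114338122, minus strand: tatggattttCTACCTCaattttggca
Trim71, chr9:114338090-114338096, minus strand: aaaaagttgtCTACCTCacgtcggcac

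Total counts lay between 11221023 and 19652197 per library, and none of the replicate pairs within a group agreed within sampling noise. *Pcx*, *Me1* and *Me2* were each lower in all 3×KD than in all Neg libraries of both states, with log2 fold changes of -0.89 to -1.14 in ESCs and -0.98 to -1.05 in EpiLCs. In Neg cells all 9 naive markers fell and all 8 formative markers rose from ESCs to EpiLCs, which fits the titles. Summed naive markers (CPM, counts scaled to library size after TMM normalization) were 2929 to 2984 in 3×KD against 4170 to 4292 in Neg ESCs, and 399.9 to 416.6 against 309.1 to 321.5 in EpiLCs. Summed formative markers were 1772 to 1837 in 3×KD against 3091 to 3463 in Neg EpiLCs, where 6 of 8 fell and none rose. Summed mesoderm markers lay between 1.68 and 5.02 CPM in all libraries. Fibroblast markers summed to 7.86 to 8.62 in 3×KD against 4.34 to 5.41 in Neg ESCs, and to 5.68 to 7.32 against 3.82 to 4.97 in EpiLCs. Primitive endoderm markers summed to 30.6 to 33.1 in 3×KD against 22.4 to 25.1 in Neg ESCs, and to 24.1 to 25.7 against 28.3 to 33.1 in EpiLCs. Summed neural markers were 70.3 to 72.6 in 3×KD against 133.5 to 138.7 in Neg EpiLCs, and 107.0 to 110.9 against 117.0 to 128.7 in ESCs. Trophoblast markers summed to 30.1 to 33.9 in 3×KD against 24.7 to 25.4 in Neg EpiLCs, and to 71.6 to 82.3 against 65.5 to 69.4 in ESCs. These sums hide opposite changes. In 3×KD ESCs 1 of the 6 fell and none rose (*Cdx2*, log2 fold change -2.50, from 2.86 to 0.502 CPM). In 3×KD EpiLCs 1 rose (*Tfap2c*, 1.21) and 1 fell (*Gata3*, -1.62, from 0.595 to 0.189 CPM). The 2-cell-like markers stood at 788.4 to 844.8 in 3×KD against 362.7 to 395.9 in Neg EpiLCs. In bulk RNA, fewer cells of a type and less RNA per cell cannot be told apart, and the part of these marker shifts in the values below was not tested.

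Going from ESCs to EpiLCs day 2, 7 of the 10 genes rose and *Sox2* fell in Neg cells, and the same 7 rose and *Sox2* fell in 3×KD cells. *Lin28a* and *Utf1* changed most, by 4.45 and 4.30 on the log2 scale in Neg cells, and *Pou5f1* and *Sall4* did not pass the fold limit in either line. A call needed a Benjamini-Hochberg adjusted p under 0.01 over all genes tested (edgeR, quasi-likelihood) and a log2 fold change past 0.58. Of all genes tested, 9.78% were called higher and 11% lower in Neg cells, and 9.42% higher and 9.32% lower in 3×KD cells. The median log2 fold change of the 10 genes was 1.01 in Neg and 0.92 in 3×KD cells, beside 0.0115 and 0.011 over all genes. Both comparisons were run in 1 fit.

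**Figure D1:**
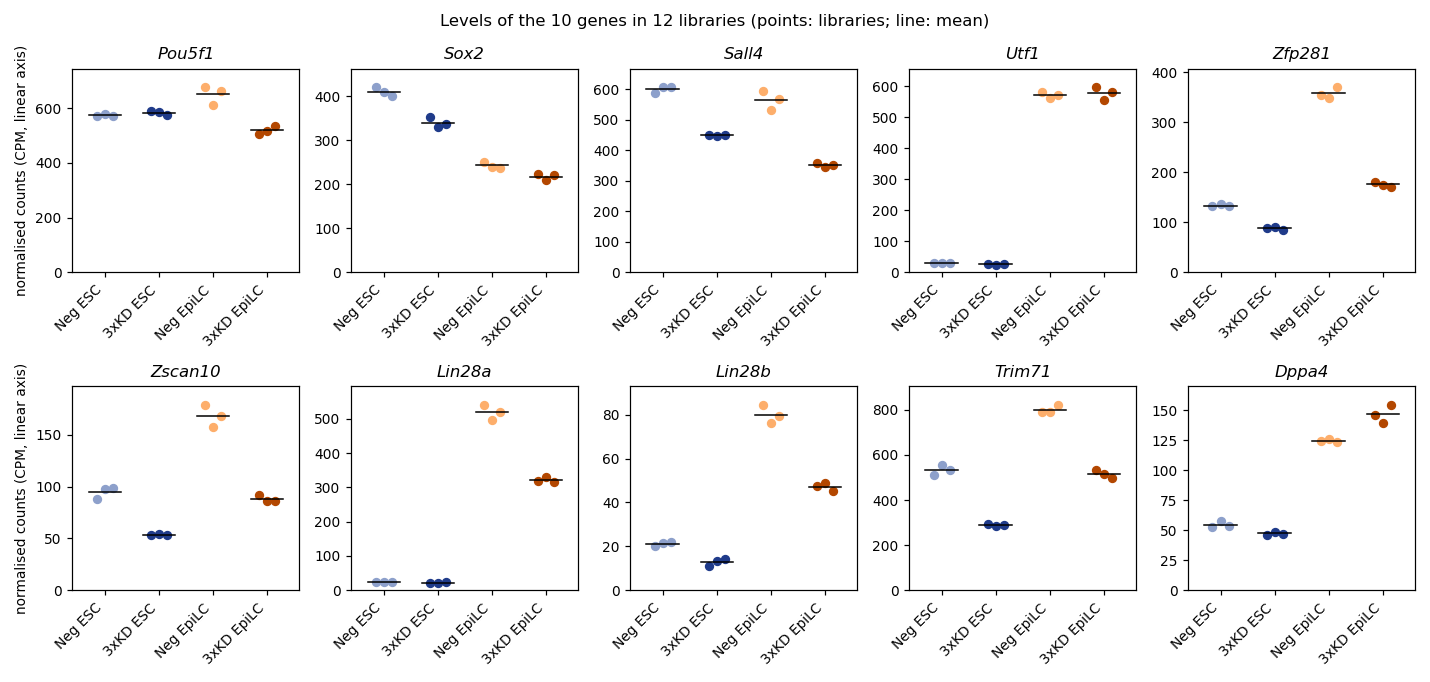
Normalized counts (CPM, linear axis from 0) of each of the 10 genes in the 12 libraries; points are libraries, lines are means of 3. *Utf1* and *Lin28a* are near the floor of their panels in ESCs of both lines (21.5 to 30.01 CPM), and the 3×KD points of *Zfp281*, *Zscan10*, *Lin28b* and *Trim71* sit under the Neg points of the same state.

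*Lin28a* (chromosome 4, 133730641 to 133746173, minus strand, GRCm39) encodes the LIN28 protein that acts mainly in the cytoplasm. Its CPM were 23.8, 24.6 and 22.9 in Neg ESCs and 22.1, 21.5 and 23.1 in 3×KD ESCs. In Neg EpiLCs they were 540.3, 495.3 and 520.7, and in 3×KD EpiLCs 318.5, 330.6 and 315.8. The ESC groups overlapped, every EpiLC library was far above every ESC library, and the 3×KD EpiLCs stood below all Neg EpiLCs. The rise was 21.9-fold in Neg cells (log2 4.45, SE 0.046, adjusted p = 9.69e-20) and 14.5-fold in 3×KD cells (log2 3.86, SE 0.0455, adjusted p = 6.89e-19). In ESCs the log2 fold change of 3×KD over Neg was -0.10 (SE 0.052, adjusted p = 0.247), while in EpiLCs *Lin28a* fell by 0.69 (SE 0.0369, adjusted p = 3.62e-10).

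*Lin28b* (chromosome 10, 45252646 to 45362557, minus strand) encodes the paralog that can also act in the nucleus. Its CPM were 20.03, 21.3 and 22.1 in Neg ESCs and 11.1, 13.2 and 14.3 in 3×KD ESCs. The EpiLC values were 84.4, 76.1 and 79.5 in Neg and 47.5, 48.8 and 45.3 in 3×KD cells. No groups overlapped, so that *Lin28b*, unlike *Lin28a*, was already apart between the lines as ESCs. It fell by 0.72 in 3×KD ESCs (SE 0.0808, adjusted p = 1.54e-06) and by 0.76 in 3×KD EpiLCs (SE 0.0655, adjusted p = 8.46e-08), and rose 3.77-fold in Neg and 3.67-fold in 3×KD cells between the states. Per kilobase of its main transcript it was the lowest of the 10 genes in all 4 groups, at 2.38 to 14.8 CPM per kb on average.

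*Trim71* (chromosome 9, 114336201 to 114393437, minus strand) encodes an RNA-binding protein of the TRIM-NHL family that represses target mRNAs. CPM were 510.3, 557.7 and 531.3 in Neg ESCs and 294.5, 285.6 and 288.2 in 3×KD ESCs. After induction the values were 789.8, 789.3 and 821.7 in Neg and 531.2, 515.2 and 498.3 in 3×KD cells. The 3×KD EpiLCs overlapped Neg ESCs, and all other groups stood apart. *Trim71* fell by 0.88 in 3×KD ESCs (SE 0.0376, adjusted p = 2.66e-11), which is 0.543 of the Neg level, and by 0.64 in 3×KD EpiLCs (SE 0.0371, adjusted p = 9.55e-10). Its rise between the states was 1.501-fold in Neg cells (log2 0.59, SE 0.0371), just past the fold limit. That call was lost without Neg ESC replicate 1 (0.56) or Neg EpiLC replicate 3 (0.57), and with library size alone as the scaling the rise was 0.55 and the EpiLC knockdown value -0.577, both short of the limit. In 3×KD cells the rise was 1.78-fold (log2 0.83, SE 0.0376).

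*Pou5f1* (chromosome 17, 35816789 to 35822274, plus strand) encodes OCT4, and differed less between the groups than most of the others. CPM were 570.7, 577.7 and 571.5 in Neg ESCs and 589.8, 585.8 and 572.8 in 3×KD ESCs. The EpiLC values were 676.4, 611.9 and 663.5 in Neg and 505.2, 516.9 and 535.9 in 3×KD cells. The ESC groups overlapped, and the 3×KD EpiLCs were below every other library. The log2 fold change of 3×KD over Neg was 0.02 (SE 0.0376, adjusted p = 0.674) in ESCs and -0.33 (SE 0.0376, adjusted p = 2.52e-06) in EpiLCs, the latter short of the fold limit. *Pou5f1* has processed copies elsewhere in the genome, so that some of its reads may have been shared among them, and the annotation places *Gm19553* and *Gm32362* over its exons on the opposite strand.

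*Sox2* (chromosome 3, 34704554 to 34706610, plus strand) encodes the partner of OCT4 and was the gene that ran against the other 7. Its CPM were 420.4, 409.8 and 399.1 in Neg ESCs and 352.0, 329.9 and 336.5 in 3×KD ESCs. After induction the values were 250.6, 240.1 and 237.0 in Neg and 222.6, 208.6 and 221.2 in 3×KD cells. All 4 groups stood apart, in the order Neg ESCs, 3×KD ESCs, Neg EpiLCs, 3×KD EpiLCs. *Sox2* fell between the states by 0.76 in Neg (SE 0.0374, adjusted p = 3.51e-11) and by 0.64 in 3×KD cells (SE 0.0375, adjusted p = 3.97e-10), and the latter was -0.57 and not called with upper-quartile factors. The knockdown values were -0.27 (SE 0.037) in ESCs and -0.16 (SE 0.0376) in EpiLCs, neither past the fold limit.

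*Sall4* (chromosome 2, 168590252 to 168609863, minus strand) encodes a zinc finger protein that works with OCT4. It had 587.0, 606.6 and 606.2 CPM in Neg ESCs and 448.3, 447.8 and 448.3 in 3×KD ESCs. In EpiLCs it had 594.3, 532.6 and 567.1 in Neg and 359.1, 345.3 and 350.3 in 3×KD cells. The Neg groups overlapped between the states, and the 3×KD groups were below them and apart from each other. *Sall4* fell by 0.68 in 3×KD EpiLCs (SE 0.0373, adjusted p = 4.53e-10). In ESCs the value was -0.42 (SE 0.0371, adjusted p = 1.01e-07), short of the fold limit.

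*Utf1* (chromosome 7, 139523649 to 139525025, plus strand) encodes a chromatin-bound factor of pluripotent cells. CPM were 28.7, 30.0 and 28.6 in Neg ESCs and 27.7, 25.1 and 25.5 in 3×KD ESCs. The EpiLC values were 583.3, 563.9 and 571.0 in Neg and 597.7, 556.8 and 580.4 in 3×KD cells. The EpiLC groups overlapped, and *Utf1* rose 19.7-fold in Neg (log2 4.30, SE 0.0442, adjusted p = 9.69e-20) and 22.1-fold in 3×KD cells (log2 4.47, SE 0.0444, adjusted p = 2.5e-19). The knockdown values were -0.16 (SE 0.0485) in ESCs and 0.01 (SE 0.0358) in EpiLCs, neither past the limit. *Utf1* and *Lin28a* thus had near equal rises in Neg cells, and only for *Lin28a* did the EpiLC groups of the lines stand apart.

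*Zfp281* (chromosome 1, 136552639 to 136560840, plus strand) encodes a zinc finger factor that binds G-rich DNA and is known for its part in the passage from naive to primed cells. CPM were 132.9, 135.7 and 131.7 in Neg ESCs and 88.7, 89.7 and 85.2 in 3×KD ESCs. In EpiLCs they were 353.6, 349.4 and 370.2 in Neg and 180.9, 175.4 and 170.6 in 3×KD cells. No groups overlapped. Among the 10 genes the value of -1.03 in 3×KD EpiLCs (SE 0.0346, adjusted p = 3.19e-12) was the most negative, 0.491 of the Neg level. In ESCs *Zfp281* fell by 0.60 (SE 0.0365, adjusted p = 1.25e-09), close to the limit. That call was lost without 3×KD ESC replicate 1 (-0.5798), Neg EpiLC replicate 1 (-0.57), Neg EpiLC replicate 2 (-0.57) or 3×KD EpiLC replicate 3 (-0.57). Between the states it rose 2.68-fold in Neg and 2.00-fold in 3×KD cells.

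The *Zfp281* estimates also differed in which of 2 transcripts took the counts. The 4937-base transcript took 0 to 59.21% of *Zfp281* counts in Neg ESCs (mean 27.46%) and 6.36 to 20.47% in Neg EpiLCs (mean 15.69%). It took 0% in all 3×KD libraries, where the 4933-base transcript took all of them. The lengths differ by few bases, 1 Neg ESC library was also at 0, and the gene totals used here do not depend on the split.

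*Zscan10* (chromosome 17, 23819780 to 23829993, plus strand) encodes a SCAN-domain zinc finger protein of pluripotent cells. CPM were 87.9, 97.6 and 98.7 in Neg ESCs and 52.8, 54.0 and 52.9 in 3×KD ESCs. In EpiLCs they were 178.7, 157.4 and 168.3 in Neg and 92.1, 85.7 and 86.5 in 3×KD cells. The 3×KD EpiLCs overlapped Neg ESCs, as for *Trim71*. It fell by 0.83 in 3×KD ESCs (SE 0.0536, adjusted p = 2.55e-09) and by 0.93 in 3×KD EpiLCs (SE 0.0508, adjusted p = 4.5e-10), and rose between the states by 1.77-fold in Neg and 1.65-fold in 3×KD cells.

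*Dppa4* (chromosome 16, 48104062 to 48114896, plus strand) encodes a chromatin protein that works with DPPA2. CPM were 52.8, 57.5 and 53.4 in Neg ESCs and 46.3, 48.8 and 47.0 in 3×KD ESCs. In EpiLCs they were 124.8, 126.1 and 123.7 in Neg and 145.8, 139.5 and 154.5 in 3×KD cells. No groups overlapped, with the lines in opposite order in the 2 states. The values were -0.21 (SE 0.0472, adjusted p = 0.00204) in ESCs and 0.23 (SE 0.0424, adjusted p = 3e-04) in EpiLCs, neither past the fold limit. *Dppa4* rose between the states 2.29-fold in Neg and 3.10-fold in 3×KD cells. On chromosome 16 the median over 454 genes (mean CPM of 1 or more) was 0.298 for 3×KD over Neg ESCs and 0.3 for EpiLCs, while medians of the other autosomes and of X lay between -0.052 and 0.064. Relative to that median, *Dppa4* was at -0.50 in ESCs and -0.07 in EpiLCs. The part of this chromosome-wide shift in its values was not tested, and the other 9 genes moved by at most 0.053 when set against their own chromosomes.

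Set side by side, 3×KD against Neg gave 4 genes lower and none higher in ESCs (*Zfp281*, *Zscan10*, *Lin28b*, *Trim71*), where 6.76% of all genes were called lower and 8.5% higher. In EpiLCs 6 were lower and none higher, the same 4 with *Sall4* and *Lin28a*, where 5.35% of all genes were called lower and 7.88% higher. Medians of the 10 genes were -0.35 in ESCs and -0.66 in EpiLCs, beside 0.0256 and 0.0319 over all genes. Of the 10 genes, 8 had every 3×KD library below every Neg library in ESCs and 8 in EpiLCs, where 23.83% and 23.11% of all genes did. Using an adjusted p under 0.05 with no fold limit, 8 of the 10 were called lower and none higher in ESCs, where 19.8% of all genes were called lower and 20.1% higher. In EpiLCs 8 were called lower by that rule and *Dppa4* higher, where the shares of all genes were 19.1% and 19%.

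**Figure D2:**
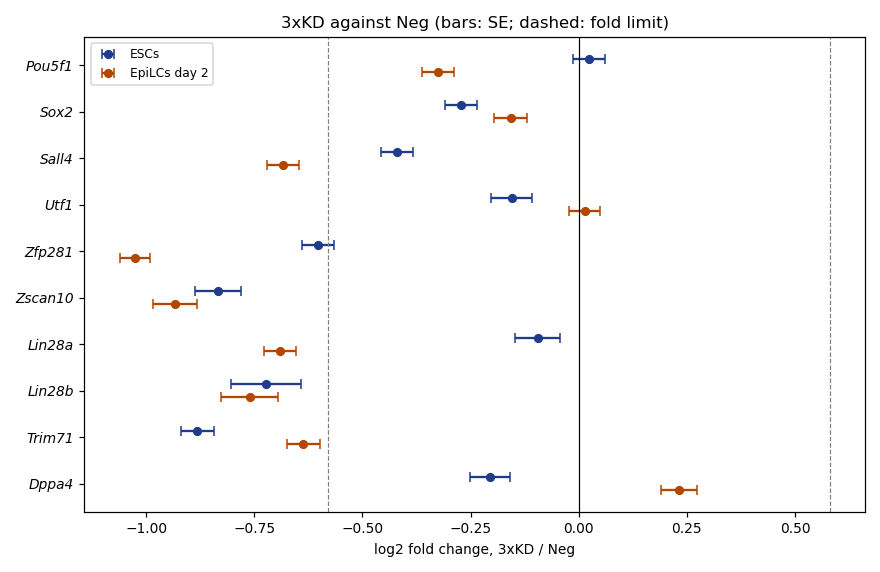
Log2 fold change of 3×KD over Neg for each of the 10 genes in ESCs and EpiLCs day 2, with SE as bars and the fold limit of 0.58 as dashed lines. *Zfp281*, *Zscan10*, *Lin28b* and *Trim71* lie left of the limit in both states, *Sall4* and *Lin28a* only in EpiLCs, and *Dppa4* changes side.

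**Figure D3:**
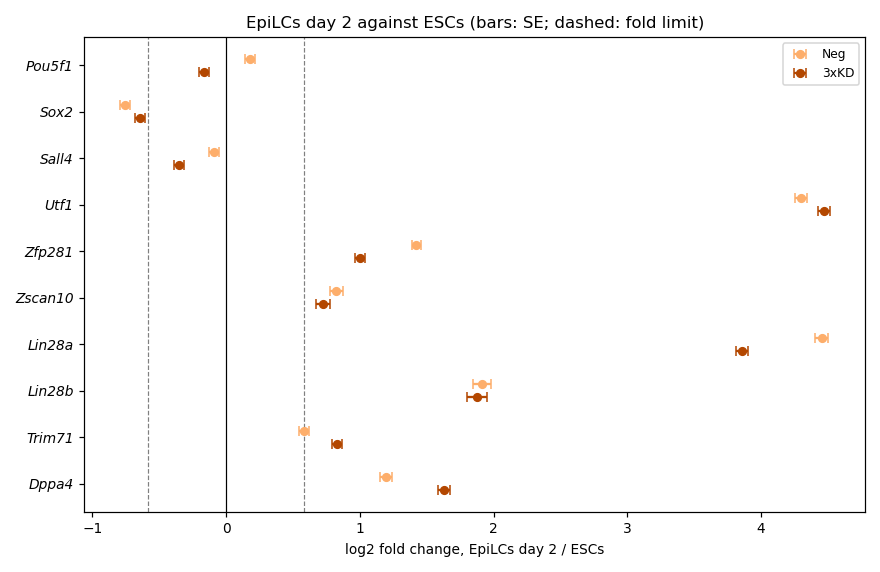
Log2 fold change of EpiLCs day 2 over ESCs in Neg and 3×KD cells, with SE as bars and the fold limit dashed. *Lin28a* and *Utf1* lie near 4, *Sox2* lies left of 0, and *Pou5f1* and *Sall4* stay within the limits.

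Whether the 3×KD effect differed between the states was tested by the interaction of line and state (adjusted p under 0.01, with no fold limit). It was called for 6 of the 10 genes, 4 more negative and 2 more positive in EpiLCs, where 5.27% of all genes were called more negative and 4.76% more positive. *Lin28a* had the most negative difference, -0.59 (SE 0.0637, adjusted p = 6.12e-06), followed by *Zfp281* with -0.42 (SE 0.0501, adjusted p = 1.65e-05), *Pou5f1* with -0.35 (SE 0.0532, adjusted p = 0.000195) and *Sall4* with -0.26 (SE 0.0524, adjusted p = 0.00203). *Dppa4* had 0.44 (SE 0.0635, adjusted p = 0.000126), and *Trim71*, whose reduction was smaller in EpiLCs, had 0.25 (SE 0.0526, adjusted p = 0.00356). The differences for *Lin28b* (-0.04, SE 0.105) and *Zscan10* (-0.10, SE 0.0737) were not called, nor were those for *Sox2* (0.11, SE 0.0527) and *Utf1* (0.17, SE 0.0603). With transcript-length offsets 2 of the 10 were called, and the values for *Lin28a* (-0.68, adjusted p = 0.0869), *Sall4* (-0.19, adjusted p = 0.391), *Dppa4* (0.40, adjusted p = 0.0134) and *Trim71* (0.22, adjusted p = 0.043) missed the threshold. *Sall4* also missed it with library size alone (-0.19, adjusted p = 0.0194). *Trim71* also missed it without Neg ESC replicate 2 (0.21), 3×KD ESC replicate 2 (0.24), 3×KD ESC replicate 3 (0.24), Neg EpiLC replicate 1 (0.21) or Neg EpiLC replicate 2 (0.21).

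**Figure D4:**
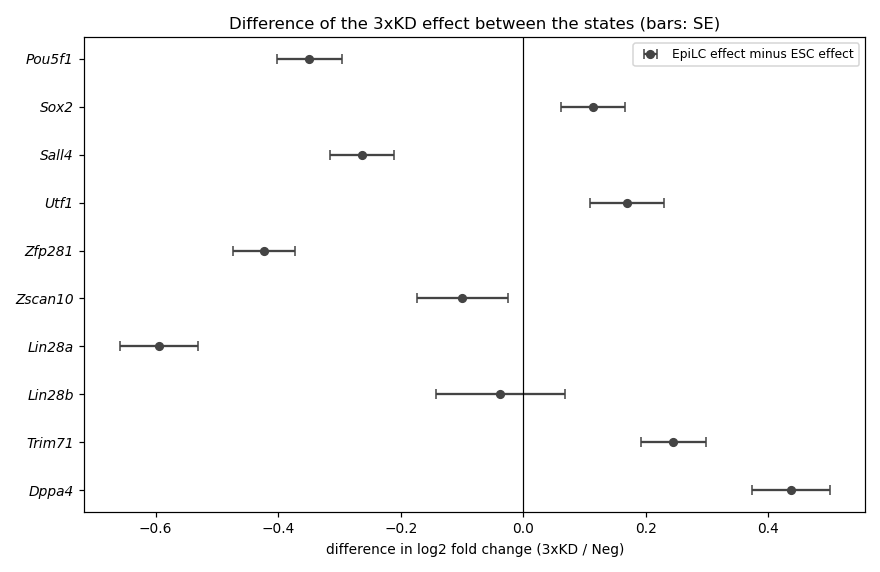
Difference of the 3×KD effect (EpiLCs day 2 minus ESCs, log2) for each of the 10 genes with its SE as a bar. *Lin28a*, *Zfp281*, *Pou5f1* and *Sall4* lie below 0, *Dppa4* and *Trim71* above it, and the SE of *Lin28b* (0.105) is the widest.

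Levels of different genes were compared per kilobase of each gene's main transcript. In Neg ESCs *Pou5f1* (420.9 CPM per kb) was the highest of the 10, before *Sox2* (199.2) and *Sall4* (118.3), and *Lin28a* (6.77) and *Lin28b* (3.92) were the lowest. In Neg EpiLCs *Pou5f1* (477.7) and *Utf1* (466.8) led, and *Lin28a* (148.0) came next, before *Sox2* (117.9). In 3×KD EpiLCs *Utf1* (471.3) stood before *Pou5f1* (381.3), and *Lin28a* (91.8) ranked 5 of 10. *Lin28a* thus passed from rank 9 to rank 3 in Neg cells, while *Lin28b* stayed at rank 10 with 14.8 CPM per kb in Neg EpiLCs.

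Across the 12 libraries, which share the states and lines, log2 CPM of *Utf1* and *Lin28a* correlated with r = 0.993, *Zscan10* and *Trim71* with r = 0.983 and *Zfp281* and *Lin28b* with r = 0.962. *Sox2* ran against *Utf1* (r = -0.94) and *Dppa4* (r = -0.926), and *Pou5f1* correlated best with *Sall4* (r = 0.727). Among 9624 other genes (mean CPM of 10 or more), those most like each gene over the 12 libraries were *Ubr7* and *Pdzd4* for *Lin28a* (both 0.9988), *Halr1* (0.9969) and *Tfdp2* (0.9959) for *Lin28b*, and *Smarcad1* (0.9966) and *Mms22l* (0.9942) for *Trim71*. For *Utf1* they were *Car2* (0.9984) and *Fam169a* (0.9965), for *Zfp281* *Ddx39b* (0.9977) and *G3bp2* (0.9975), for *Zscan10* *5730471H19Rik* (0.9964), and for *Dppa4* *Dusp6* (0.9977) and *Lgr4* (0.9965). *Sox2* was most like *Amotl2* (0.9949) and *Xrn2* (0.9929), *Sall4* like *Terf2* (0.9921) and *Mapre1* (0.991), and *Pou5f1* like *Psmb7* (0.9715) and *Eif4h* (0.961). These coefficients describe the 12 libraries only, in which 4 groups set most of the variation.

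Promoter sequences (RefSeq, GRCm38.p6, 250 bases before to 50 after the start) were at hand for 8 of the genes, and *Sall4* and *Dppa4* had none in the table. They are shown because OCT4, SOX2 and ZFP281 are products of the genes described here. Whether ZFP281 acts on any of these genes was not tested. Both strands were searched for GGGGAGGGG, a G-rich run of the kind ZFP281 binds. It was present in the promoters of *Lin28a* and *Trim71*, each with 2 matches that overlap in *Lin28a*, and in 6.371% of 32851 promoters. The SOX letters CATTGT stood in 12.569% of promoters and in those of *Lin28a* and 1 of 2 *Pou5f1* entries, the E-box CACGTG in 7.15% and in that of *Lin28b*, and the octamer ATGCAAAT in 1.735% and in none of the 8. A match is a description of letters and not a bound site. The pair with the G-rich run is shown with all matches in capitals.
Lin28a, chr4:134018767-134019066 (GRCm38.p6), minus strand: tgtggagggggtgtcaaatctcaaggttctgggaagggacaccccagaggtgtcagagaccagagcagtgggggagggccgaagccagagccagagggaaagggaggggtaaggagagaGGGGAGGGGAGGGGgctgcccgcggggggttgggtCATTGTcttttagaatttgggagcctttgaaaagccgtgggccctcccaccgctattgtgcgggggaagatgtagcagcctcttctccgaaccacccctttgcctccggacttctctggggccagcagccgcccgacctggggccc
Trim71, chr9:114564320-114564619 (GRCm38.p6), minus strand: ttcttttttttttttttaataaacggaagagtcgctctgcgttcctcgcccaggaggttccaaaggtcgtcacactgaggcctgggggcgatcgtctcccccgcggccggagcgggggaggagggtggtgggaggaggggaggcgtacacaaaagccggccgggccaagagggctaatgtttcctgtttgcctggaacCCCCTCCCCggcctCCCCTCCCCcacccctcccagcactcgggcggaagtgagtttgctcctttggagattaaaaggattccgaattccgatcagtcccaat

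The genes around the axis were taken as lists, and lists share genes, *Fgf4* and *Nanog* among them. Of all genes tested, 8.5% were called higher and 6.76% lower in 3×KD ESCs. In 3×KD EpiLCs the shares were 7.88% and 5.35%. Between the states they were 9.78% and 11% in Neg cells, and 9.42% and 9.32% in 3×KD cells. These shares stand beside every list count below. Of 28 other shared pluripotency genes, 1 rose and 5 fell in 3×KD ESCs (median log2 fold change -0.20), and 2 rose and 8 fell in 3×KD EpiLCs (median -0.20). *Foxd3*, a forkhead repressor of pluripotent cells, fell by 2.24 in ESCs (SE 0.0794) and by 2.41 in EpiLCs (SE 0.0746), from 52.2 to 11.04 and from 85.2 to 15.99 CPM on average. *Tdgf1*, which encodes the NODAL co-receptor CRIPTO, rose by 1.27 in ESCs (SE 0.0472) and by 0.93 in EpiLCs (SE 0.0453). *Smarcad1*, a chromatin remodeler, fell by 0.91 in ESCs (SE 0.0406) and by 0.72 in EpiLCs (SE 0.0387). In EpiLCs *Nanog* rose by 1.07 (SE 0.0442, from 35.97 to 75.6 CPM) and *Fgf4* fell by 1.15 (SE 0.0316). Between the states 14 of the 28 rose and 3 fell in Neg cells, and 11 rose and 3 fell in 3×KD cells. In Neg and 3×KD cells in turn, *Nanog* stood at -4.83 and -3.87, *L1td1* at 2.00 and 2.41, and *Zic2* at 1.95 and 1.83.

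The 5 genes known for elements bound by OCT4 and SOX2 did not move as a group. In 3×KD ESCs *Spp1* rose by 0.91 (SE 0.0359) and none fell. In 3×KD EpiLCs *Spp1* (1.31, SE 0.0428), *Nanog* and *Fbxo15* rose while *Fgf4* and *Lefty1* fell. Between the states *Lefty1*, an inhibitor of NODAL, rose by 8.91 in Neg and by 7.53 in 3×KD cells, while *Nanog* and *Spp1* (-3.43 and -3.03) fell in both. In all, 2 rose and 3 fell in Neg cells, and 1 rose and 3 fell in 3×KD cells.

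Of 12 paralogs of the members, 3 rose and 1 fell in 3×KD ESCs, and 1 rose and 6 fell in 3×KD EpiLCs. In ESCs *Sox11* rose by 1.26 (SE 0.0527), *Sox15*, at a mean of 2.38 to 4.54 CPM, rose by 0.81 (SE 0.219), and *Sall3* fell by 1.15 (SE 0.0525). *Sox15* also rose in EpiLCs, by 0.92 (SE 0.216). Without Neg ESC replicate 3 the count in ESCs was 2 in place of 4, and it was also 2 when only the groups compared were fitted. In EpiLCs *Pou3f1* (OCT6, a POU factor of the formative state) fell by 1.83 (SE 0.0633), *Sall3* by 1.65 (SE 0.0703) and *Sox1* by 1.60 (SE 0.0899). Between the states 9 rose and 1 fell in Neg cells and 8 rose and 1 fell in 3×KD cells. In Neg and 3×KD cells in turn, *Pou3f1* stood at 6.40 and 4.23, *Sall2* at 3.32 and 1.67 and *Sox1* at 3.20 and 1.75. *Sall3* stood at -2.19 and -2.69, and *Sox4* at 2.53 and 2.36.

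For let-7 itself, none of the 12 precursor genes reached 10 counts over all libraries, and mature let-7 was not measured by these libraries. Of the host transcripts, *Mir100hg* had means of 0.731 to 1.17 CPM and *Mir99ahg* 0.0421 to 0.185, and neither was called in any comparison (*Mir100hg*, 0.38, SE 0.341, in ESCs and -0.57, SE 0.351, in EpiLCs). Of 21 genes for microRNA processing and LIN28 partners, 2 rose and 2 fell in 3×KD ESCs, and 2 rose and 3 fell in 3×KD EpiLCs. *Dgcr8*, the RNA-binding partner of DROSHA, fell by 0.92 in ESCs (SE 0.0492) and by 0.73 in EpiLCs (SE 0.0477). *Msi1* rose by 0.91 in ESCs (SE 0.0715) and by 0.61 in EpiLCs (SE 0.0738). *Dhx9*, an RNA helicase, fell by 0.63 in ESCs (SE 0.0405) and by 0.96 in EpiLCs (SE 0.0404). *Prkra* rose by 0.71 in ESCs (SE 0.116), and *Ago4*, at 1.30 to 2.68 CPM, rose by 1.04 in EpiLCs (SE 0.202). Between the states 3 rose and 2 fell in Neg cells, and 2 rose and 2 fell in 3×KD cells. *Ago2*, the slicing Argonaute, fell by 0.89 in Neg and by 0.85 in 3×KD cells. In Neg cells *Prkra* rose by 1.08 and *Ago4* fell by 1.05. *Tut4*, which adds uridines to let-7 precursors that LIN28 holds, rose by 0.73 in Neg and by 0.79 in 3×KD cells. *Ago1* rose by 0.69 in Neg and by 0.79 in 3×KD cells.

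Of 32 known let-7 targets, 2 rose and 6 fell in 3×KD ESCs (median -0.17), and 3 rose and 5 fell in 3×KD EpiLCs (median -0.08). Of all genes, 8.5% were called higher and 6.76% lower in ESCs, and 7.88% and 5.35% in EpiLCs. *Ccnd1*, which encodes cyclin D1, fell by 2.01 (SE 0.0627) in ESCs and by 1.75 (SE 0.0634) in EpiLCs, and *Mycn* fell by 1.05 (SE 0.049) in ESCs and fell by 1.81 (SE 0.0493) in EpiLCs. *Myc* fell by 2.10 in ESCs (SE 0.21), from 4.31 to 1.04 CPM, and *Igf2bp2*, an RNA-binding protein gene, rose by 0.99 in EpiLCs (SE 0.041). Between the states 6 rose and 6 fell in Neg and 6 rose and 5 fell in 3×KD cells, with *Myc* at 3.61 and 5.99, *Thbs1* at 4.27 and 3.79 and *Plagl1* at -3.70 and -3.77. Of 6 TRIM71 targets, *Plxnb2* rose by 0.62 in 3×KD ESCs (SE 0.0407) and by 0.95 in EpiLCs (SE 0.0442), and *Cdkn1a*, which encodes the cell cycle inhibitor p21, fell by 0.75 in EpiLCs (SE 0.0497). Between the states 1 of the 6 rose and 3 fell in Neg cells and 3 fell in 3×KD cells, with *Plxnb2* at -1.43 and -1.11, *Cdkn1a* at -0.73 and -1.77 and *Rbl1* at -0.73 and -0.70.

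**Figure D5:**
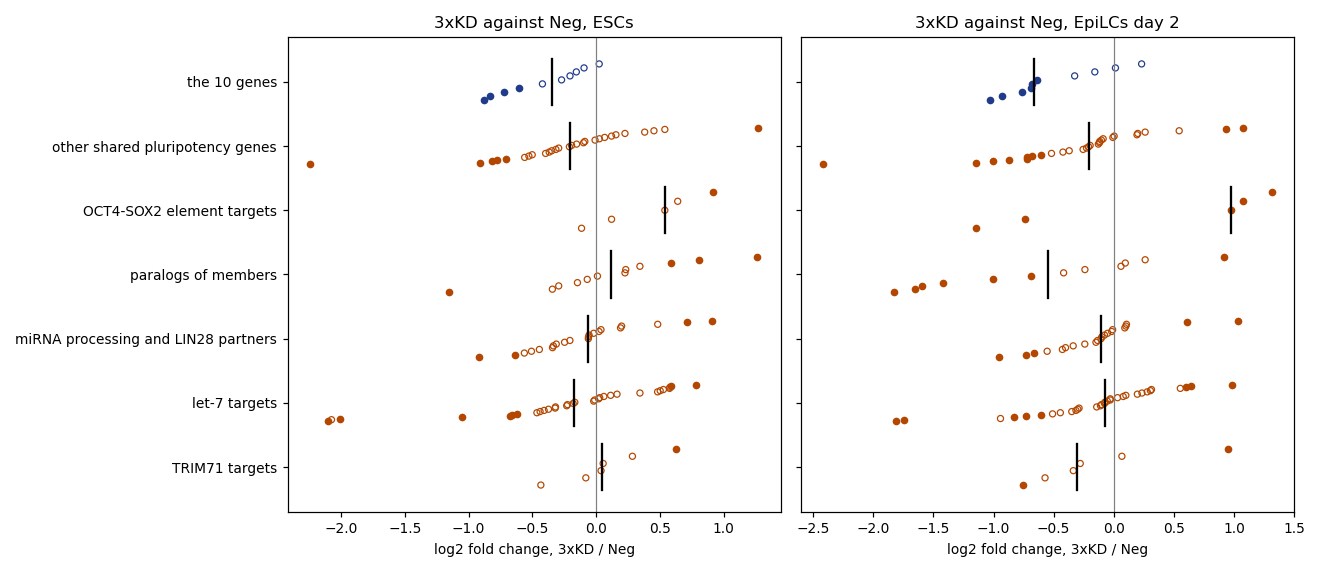
Log2 fold change of 3×KD over Neg for the genes of each list in ESCs and EpiLCs day 2; filled points passed the call, open points did not, and the black line is the list median. The 10 genes have medians of -0.35 and -0.66, and the let-7 targets spread to both sides of 0.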

How the data were processed

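Single-end RNA-seq of 12 libraries was analyzed. Per the labels' processing notes the authors used bcl2fastq, Trim Galore 0.6.7, STAR 2.7.9a and Salmon 1.10.1, on GRCm39. The deposited tables hold, per transcript, estimated counts that are not normalized and the authors' TPM, scaled by transcript length and library total. TPM were used for shares of a gene's transcripts and for the average transcript lengths behind the transcript-length offsets. The *Zfp281* shares given above are of counts. Levels were not taken from TPM, since 1 transcript took 15.2 to 29.7% of a library's TPM. The estimated counts of a gene's transcripts were added up and then rounded, genes under 10 counts in total were left out, and edgeR 4.0.16 (R 4.3.3) fitted all 12 libraries and 4 groups in 1 quasi-likelihood model with TMM factors. Sharing 1 fit gives 1 estimate of the spread. SE is the log2 fold change divided by the square root of F. The main transcript of a gene, used for levels per kilobase, is the one with the most counts. Libraries were grouped by titles, since the labels' cell-type entry names the same state for every library of a line. The library kit is directional, and whether counting used strand is not given in the sources used here, so that antisense genes over the exons of *Pou5f1*, *Sox2*, *Sall4*, *Lin28a* and *Trim71* could share reads.

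The members, gene lists and tests were chosen with earlier results of these data known. Named were all 10 members, and from each list the 3 called genes with the largest absolute log2 fold change per comparison or, with none called, the most abundant one, and for likeness the 2 closest genes, except for items that are not reported here. Other genes of a list are named where a count of 5 or fewer is given. The code was tested on simulated data. Annotation matched 99.0% of genes (GENCODE vM39). The alternatives were other scalings, filters, transcript-length offsets, a replicate block, robust estimation, DESeq2 1.42.0, the groups compared alone, and leaving out each library.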

Additional observations from a re-analysis of the deposited data

Results flagged for a closer look

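The 3×KD effect differed between EpiLCs day 2 and ESCs for 6 of the 10 genes by the interaction test (edgeR, adjusted p under 0.01). Of all genes tested, 5.27% were called more negative and 4.76% more positive. The calls for *Lin28a*, *Sall4*, *Dppa4* and *Trim71* were lost with transcript-length offsets. Given as the effect in EpiLCs minus the effect in ESCs on the log2 scale, the difference was -0.35 for *Pou5f1*, -0.26 for *Sall4*, -0.42 for *Zfp281*, -0.59 for *Lin28a*, 0.25 for *Trim71* and 0.44 for *Dppa4*. On chromosome 16, which holds *Dppa4*, the median over genes for 3×KD over Neg was 0.298 (ESCs) and 0.3 (EpiLCs), and the part of this shift in its value was not tested.

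Among the other shared pluripotency genes, 7 called differences were positive and 10 negative, with *Fgf4* at -1.69 and *Nanog* at 0.95. Beside the list counts given here, 4.76% of all genes were called more positive and 5.27% more negative. All 5 genes with OCT4 and SOX2 elements differed, 3 positively and 2 negatively, with *Lefty1* at -1.38 (ESC means of 0.577 and 0.894 CPM) and *Fbxo15* at 1.09. Of the 12 paralogs 8 were more negative in EpiLCs and none more positive, with *Pou3f1* at -2.17, *Sall2* at -1.65 and *Sox1* at -1.45. Of the microRNA processing genes *Prkra* (-0.76), *Tut7* (0.41) and *Dhx9* (-0.32) differed. Of the let-7 targets 6 differences were positive and 5 negative, with *Myc* at 2.38, *Mycn* at -0.76 and *Cdk6* at 0.60. *Cdkn1a* differed by -1.03 and *Plxnb2* by 0.32.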

How the results depend on the processing

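Over the alternatives, 1105 of 1140 log2 fold changes of the 10 genes kept their direction and their side of the threshold, 19 lost the call, 10 gained it and 6 reversed. The reversals were all of values near 0 that were not called. *Lin28b*'s difference between states was 0.0358 with library size alone and ran from -0.1581 without 3×KD ESC replicate 1 to 0.0443 without 3×KD ESC replicate 3. *Utf1* in 3×KD EpiLCs was -0.0022 with transcript-length offsets, -0.0017 with only the groups compared and ran from -0.0095 without 3×KD EpiLC replicate 1 to 0.0406 without 3×KD EpiLC replicate 2, and *Sall4* between the states in Neg cells was 0.046 with the offsets. Of the counts of called members, the difference between states was 2 in place of 6 with transcript-length offsets, and 3×KD against Neg ESCs was 8, all lower, in place of 4 with an adjusted p under 0.05 and no fold limit, a rule that called 19.8% of all genes lower. The cause was not tested. Leaving out each library gave 3 to 4 called members in ESCs, 6 in EpiLCs, 7 to 8 between the states in Neg, 8 in 3×KD cells and 5 to 6 for the difference. Of the list counts, that of microRNA processing genes for the difference, 3, was 5 without Neg EpiLC replicate 2 and 6 without 3×KD EpiLC replicate 3. Same-numbered libraries gave 18 correlations of their deviations from -0.135 to 0.1, and differently numbered ones lay between -0.146 and 0.181. The same-numbered correlations thus lay within the range of the differently numbered ones. Deviations were taken from means of only 3 libraries, so a weak pairing by number could go unseen. With a replicate block the counts of called members were 4, 6, 8, 8 and 6, as without it. The difference between states could not be fitted with only the groups compared, since it uses all 4. A count of all genes called for that difference was 731 with transcript-length offsets against 2553. The let-7 precursors stayed under 10 counts in total and could not be tested.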
